A study of Mus musculus with 5 samples.

Results

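Collagens and laminins are the protein families that build the basement membrane of brain vessels and the interstitial matrix around them. They were read here from every protein-coding gene whose mouse symbol has the form Col, a number, a and a number, or Lama, Lamb or Lamc and a number. The rule found 55 genes among the 55573 in the count tables, 44 for collagen chains and 11 for laminin chains. Col4a3bp, which carries a collagen symbol but no collagen chain, was left out. RNA was sequenced from the brains of C57BL/6 females inoculated at 7 to 8 weeks of age, in the right caudate-putamen, with GL261 glioma cells carrying luciferase and mKate2, so both groups bore a tumor of the same cell line. Vehicle mice (3 libraries) received inVivoPure pH 6.5 Dilution Buffer. UMBO mice (2 libraries) received ultrasound-mediated blood-brain barrier opening, in which low-intensity pulsed ultrasound acts on injected microbubbles. Sessions took place on days 21 and 24, and the right hemisphere was collected 24 h after the last one, from a separate mouse for each library.

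Laminins are trimers of an alpha, a beta and a gamma chain that form the first sheet of a basement membrane, and type IV collagen forms a second network that nidogens and perlecan tie to it. Endothelial cells make the laminin alpha 4 and alpha 5 chains, while astrocytes and pericytes contribute the alpha 2 chain on the brain side of the vessel. Fibrillar collagens form the banded fibers of connective tissue, which in the brain lie mainly in the meninges and around larger vessels, and fibril-associated collagens sit on the surface of such fibers.

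The total count was between 59736771 and 86164159 per library. Markers of neurons (summed CPM, the TMM-normalized count scaled to a common library size, between 2229 and 7267) and of oligodendrocytes (between 5270 and 6127) were present in all 5 libraries, as the label brain requires. UMBO replicate 2 stood apart. Its summed CPM was 461 for 10 proliferation genes, against 110 in UMBO replicate 1 and 34.5 to 106 with vehicle. For 8 monocyte and macrophage genes the sum was 120, against 30.2 in UMBO replicate 1 and 10.98 to 54.5 with vehicle. The neuron sum was the lowest in UMBO replicate 2. Many values below are therefore also given without this library. In bulk RNA, fewer cells of a type and less RNA per cell cannot be told apart.

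The summed level of the collagen genes was higher in both UMBO libraries, and that of the laminin genes was little different. The 44 collagen genes summed to 816, 892 and 906 CPM with vehicle, against 1177 and 1302 CPM with UMBO (replicates in order, here and throughout). The 11 laminin genes summed to 179, 185 and 201 CPM with vehicle, against 216 and 195 CPM with UMBO. The collagen sums did not overlap between the groups, although 245 CPM of the sum in UMBO replicate 2 came from Col9a2 alone, while the laminin sum of UMBO replicate 2 lay inside the vehicle range.

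All 55 genes had enough counts to be tested, and 0 of them passed an adjusted p of 0.05 by the quasi-likelihood test of edgeR (Benjamini-Hochberg over 23592 genes, of which 0% were called). Their adjusted p in that edgeR test ranged from 0.497 to 0.943. Direction is described below by log2 fold changes of UMBO over vehicle and by the order of the libraries. At an unadjusted p under 0.05, 10 of the 55 genes were higher with UMBO, or 18.2%, beside 5.3% of all genes tested, and 3 were lower, or 5.45%, beside 2.06%. The 2 UMBO libraries both exceeded the 3 vehicle libraries for 17 genes, or 30.9%, beside 11.5% of all genes, and were both below them for 6, or 10.9%, beside 11.4%. The other 32 genes overlapped between the groups. The median log2 fold change of the 55 was 0.13, beside 0.01 for all genes tested, with 32 genes higher and 23 lower.

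A single library moved several of these counts. Without UMBO replicate 2, 10 genes were higher at an unadjusted p under 0.05, beside 1.15% of all genes, and 1 was lower, beside 0.71%. Of these 10, 7 were also among the 10 with both UMBO libraries, while Col3a1, Col9a1 and Lama4 dropped out and Col4a2, Col5a2 and Col6a1 came in. The median was then 0.18. Without UMBO replicate 1 the median was -0.14, 13 genes (23.6%) were lower at an unadjusted p under 0.05, near the 19.6% of all genes, and UMBO replicate 2 alone lay below every vehicle library for 26 genes (47.3%), near the 41.3% of all genes. Without vehicle replicate 1 the count of genes higher at an unadjusted p under 0.05 was 6, or 10.9%, beside 0.838% of all genes. The DESeq2 Wald test called 1 of the 55, Col24a1, at an adjusted p under 0.05, beside 0.179% of all genes it tested.

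**Figure D1:**
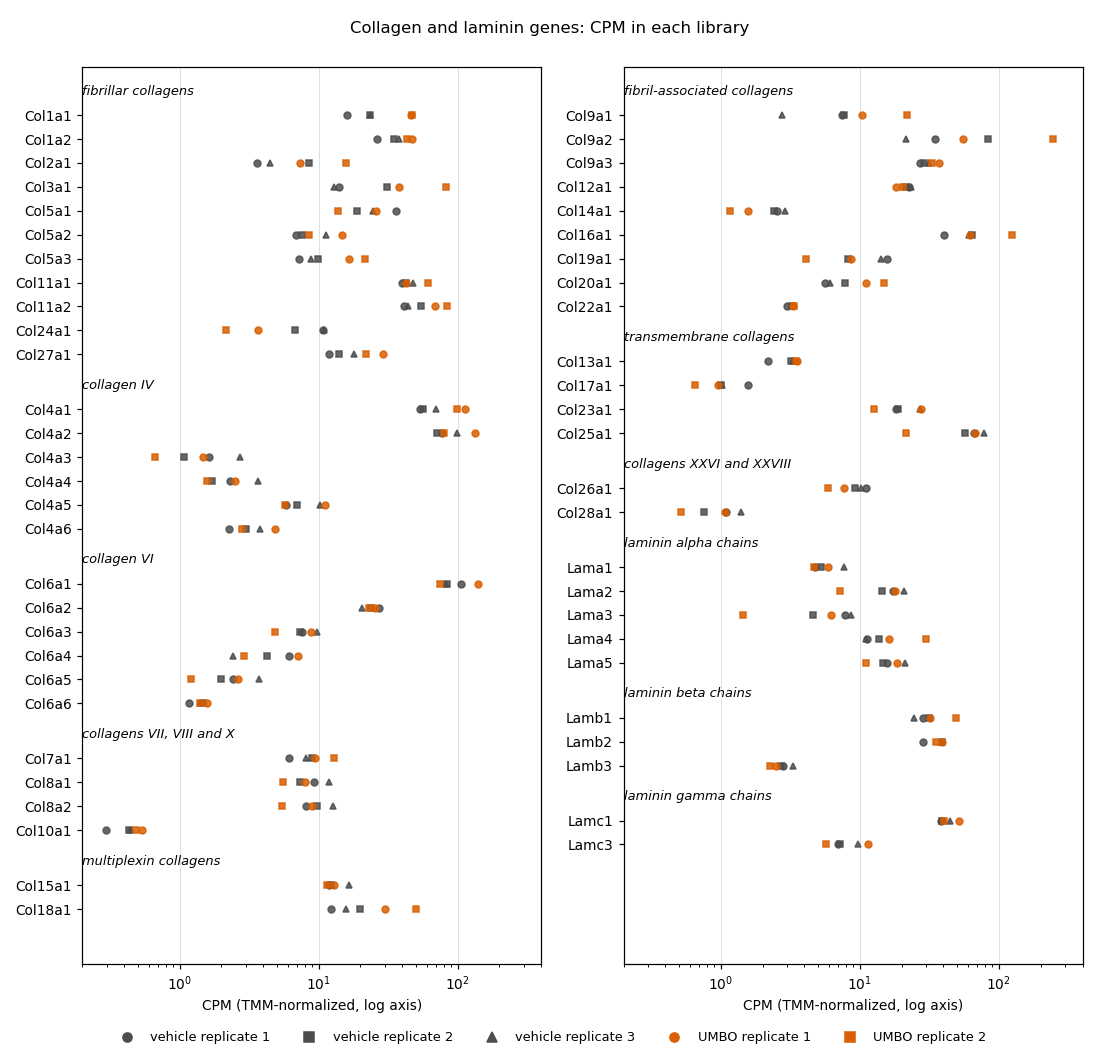
CPM of 54 collagen and laminin genes (log axis) in the 3 vehicle libraries (grey) and 2 UMBO libraries (orange), grouped by class, with 1 point per library. Col1a1, Col5a3, Col18a1 and Col4a1 have both orange points to the right of the grey ones, and Col24a1 has both to the left.

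The genes for the main collagen IV chains, Col4a1 and Col4a2, share a start region, and it is shown because the values of the 2 genes parted in UMBO replicate 2. They lie head to head on chromosome 8 of GRCm38, Col4a1 on the reverse strand (11198423 to 11312826) and Col4a2 on the forward strand (11312805 to 11449287), with 22 bases in both transcripts. The windows below run from 250 bases before to 50 after the RefSeq start site (build GRCm38.p6), each 5′ to 3′ on its gene's own strand, and 78 bases are common to the Col4a1 and Col4a2 windows. Windows of Col5a3 and Col24a1 follow because, among the fibrillar collagen genes with such a window, these had the smallest p in each direction. Capitals mark letters matching 1 of 5 motifs, searched on both strands. These were the CCAAT box (letters CCAAT, on the other strand ATTGG), the GC box (letters GGGCGG, on the other strand CCGCCC), the CTC box (letters CCCTCCCC, on the other strand GGGGAGGG), the TATA box (letters TATAAA, on the other strand TTTATA) and the AP-1 motif (letters TGAGTCA, on the other strand TGACTCA).
Col4a1, chr8:11312777-11313076, reverse strand: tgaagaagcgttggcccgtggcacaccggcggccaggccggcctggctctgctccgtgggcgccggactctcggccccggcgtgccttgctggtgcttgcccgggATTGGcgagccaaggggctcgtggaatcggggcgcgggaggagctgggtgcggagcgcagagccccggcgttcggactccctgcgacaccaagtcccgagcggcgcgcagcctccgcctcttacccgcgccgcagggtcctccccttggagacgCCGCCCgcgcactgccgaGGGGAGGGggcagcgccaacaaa
Col4a2, chr8:11312555-11312854, forward strand: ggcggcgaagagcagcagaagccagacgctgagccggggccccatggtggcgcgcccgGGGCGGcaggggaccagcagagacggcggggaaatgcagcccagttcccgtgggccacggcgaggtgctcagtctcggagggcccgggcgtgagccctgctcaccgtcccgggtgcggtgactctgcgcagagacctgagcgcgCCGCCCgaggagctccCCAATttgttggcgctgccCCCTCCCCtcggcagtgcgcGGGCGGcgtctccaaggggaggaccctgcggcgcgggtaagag
Col5a3, chr9:20815018-20815317, reverse strand: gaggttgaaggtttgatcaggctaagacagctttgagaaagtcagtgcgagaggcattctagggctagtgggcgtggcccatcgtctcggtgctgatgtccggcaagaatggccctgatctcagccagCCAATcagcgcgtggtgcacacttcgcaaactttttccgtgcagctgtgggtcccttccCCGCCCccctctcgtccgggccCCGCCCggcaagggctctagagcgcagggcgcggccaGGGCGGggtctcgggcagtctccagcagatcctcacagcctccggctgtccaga
Col24a1, chr3:145292222-145292521, forward strand: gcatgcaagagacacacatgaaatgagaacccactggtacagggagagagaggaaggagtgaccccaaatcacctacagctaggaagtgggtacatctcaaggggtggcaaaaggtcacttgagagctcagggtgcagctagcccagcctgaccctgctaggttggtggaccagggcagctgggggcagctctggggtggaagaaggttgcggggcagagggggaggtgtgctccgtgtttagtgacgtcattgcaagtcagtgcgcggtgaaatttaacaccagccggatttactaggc

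The Col4a1 window held 1 CCAAT box, at -145 from the start site (position 0), besides a GC box and a CTC box inside the stretch it shares with Col4a2. In the Col4a2 window the CCAAT box lay at -32 and the CTC box at -13. The Col5a3 window held a CCAAT box at -122 and 3 GC boxes, and in the Col24a1 window none of these letters was found. Over the 40 collagen and laminin genes with a window (44 windows, since some genes have several start sites), a GC box was in 59.1% of windows, beside 35.7% of all 32851 mouse windows, and a CTC box in 27.3%, beside 10.8%. A CCAAT box was in 31.8% beside 37.4%, a TATA box in 11.4% beside 13.6%, and an AP-1 motif in 2.27% beside 5.2%. GC and CTC boxes are made almost only of G and C. The printed windows were 74.0% (Col4a1), 73.7% (Col4a2), 63.3% (Col5a3) and 56.3% (Col24a1) G and C, beside a median of 52.7% over all windows. The shares above were not adjusted for this content. A match is a description of the letters and not evidence of binding.

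Col4a1, which encodes the alpha 1 chain of the basement membrane network, was at 53.8, 56.5 and 69.4 CPM in the vehicle libraries and at 112 and 99.8 in the UMBO libraries. Each UMBO library lay above all 3 vehicle libraries, and the means were 59.9 ± 8.35 (SD, n = 3) and 106 ± 8.99 CPM (SD, n = 2), 1.77-fold apart. Its log2 fold change was 0.82 (standard error 0.19), and 0.91 without UMBO replicate 2. Its partner Col4a2 was at 77.2, 71.6 and 98.8 CPM with vehicle and at 135 and 80.1 with UMBO, so UMBO replicate 1 was the highest library and UMBO replicate 2 lay among the vehicle libraries. The Col4a2 log2 fold change was 0.38 (standard error 0.28), 0.71 without UMBO replicate 2 and -0.07 without UMBO replicate 1.

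Per kb of exon, the ratio of Col4a1 to Col4a2 was 0.619, 0.700 and 0.624 with vehicle and 0.741 and 1.11 with UMBO. Both UMBO ratios were the higher ones, with a log2 difference of 0.49, or 0.20 without UMBO replicate 2, but 3 libraries against 2 allow an exact permutation p no smaller than 0.1. The 2-sided exact permutation test gave p = 0.1, and 0.175 after adjustment over the 7 chain ratios computed. The remaining collagen IV genes, which encode the alpha 3 to alpha 6 chains, were far lower per length, between 0.251% and 5.65% each of the collagen IV total in any library. Col4a3, Col4a4, Col4a5 and Col4a6 all overlapped between the groups, with log2 fold changes from -0.75 to 0.34, or from -0.29 to 0.68 without UMBO replicate 2.

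Among the multiplexins, collagens of basement membranes that carry long sugar chains, Col18a1 and Col15a1 differed. Col18a1 (chromosome 10 of GRCm38, 77052178 to 77166548, reverse strand), whose C-terminal fragment is endostatin, was at 12.3, 19.9 and 15.9 CPM with vehicle and at 30.2 and 50.6 with UMBO. No vehicle library reached either UMBO library, and UMBO replicate 2 was the highest. The log2 fold change of Col18a1 was 1.33 (standard error 0.30), and 0.91 without UMBO replicate 2. For Col15a1 the libraries overlapped, with a log2 fold change of -0.15 (standard error 0.23).

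The laminin genes showed no common direction: 5 were higher and 6 lower, with a median log2 fold change of -0.15, or 0.14 without UMBO replicate 2. Lama4 (chromosome 10, 38965515 to 39110188), the endothelial alpha chain, was at 11.3, 13.8 and 11.02 CPM with vehicle and at 16.1 and 30.1 with UMBO. It was the only laminin gene higher at an unadjusted p under 0.05. UMBO replicate 2 set much of its size, since the log2 fold change was 0.94 (standard error 0.30) with both UMBO libraries and 0.42 without that one.

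The other vascular alpha chains were below every vehicle library in UMBO replicate 2. Lama5, the second endothelial alpha chain, was at 15.7, 14.7 and 21.0 CPM with vehicle and at 18.4 and 11.2 with UMBO. Lama2, the alpha chain of astrocytes and pericytes, was at 17.3, 14.5 and 20.9 CPM with vehicle and at 18.1 and 7.16 with UMBO. In both genes UMBO replicate 1 lay inside the vehicle range and UMBO replicate 2 was the lowest of the 5 libraries. The log2 fold change was -0.21 (standard error 0.29) for Lama5 and -0.48 (standard error 0.41) for Lama2. Both turned positive without UMBO replicate 2, at 0.11 and 0.04. Lama1 and Lama3 overlapped between the groups as well, at log2 fold changes of -0.15 and -0.88, or 0.01 and -0.18 without UMBO replicate 2.

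Each laminin alpha chain needs a beta and a gamma chain, and the common ones had log2 fold changes between 0.06 and 0.53. Lamc1, the gamma chain of most vascular laminins, was at 38.5, 38.8 and 44.8 CPM with vehicle and at 51.6 and 40.3 with UMBO, a log2 fold change of 0.17 (standard error 0.18). Lamb2 was at 28.7, 39.1 and 38.5 CPM with vehicle and at 38.9 and 35.1 with UMBO, a log2 fold change of 0.06 (standard error 0.20). Both overlapped between the groups. Lamb1 was at 28.3, 31.5 and 24.6 CPM with vehicle and at 31.8 and 49.2 with UMBO, and the lower UMBO library exceeded the highest vehicle library only narrowly. The log2 fold change of Lamb1 was 0.53 (standard error 0.24), and 0.18 without UMBO replicate 2. Lamb3, a chain of epithelial laminin, was below every vehicle library in both UMBO libraries, with a log2 fold change of -0.31 (standard error 0.28), while Lamc3 overlapped.

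Set against Lamc1 per kb of exon, the alpha chains divided. Lama2 to Lamc1 was 0.227, 0.189 and 0.237 with vehicle and 0.177 and 0.0899 with UMBO. Lama5 to Lamc1 was 0.295, 0.276 and 0.341 with vehicle and 0.260 and 0.201 with UMBO. For both ratios, each UMBO library was lower than any vehicle library. The log2 difference was -0.78 for Lama2 and -0.41 for Lama5, and -0.29 and -0.22 without UMBO replicate 2. Each reached the smallest 2-sided p that the exact permutation test allows, 0.1, or 0.175 adjusted over 7 ratios. Lama4 to Lamc1 was 0.201, 0.244 and 0.169 with vehicle and 0.215 and 0.511 with UMBO, so that UMBO replicate 1 lay within the vehicle range (exact permutation p = 0.2, adjusted 0.28), and its log2 difference of 0.71 was 0.08 without UMBO replicate 2. As a share of the 5 alpha chains per kb, Lama4 made up 16.2% to 26.6% with vehicle, 25.5% in the first UMBO library and 55.0% in UMBO replicate 2. Lama5 made up 29.99% to 32.7%, 30.9% and 21.6% in the same order. The ratio of Lamb1 to Lamc1 overlapped (exact permutation p = 0.5), and its log2 difference of 0.33 became -0.16 without UMBO replicate 2.

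**Figure D2:**
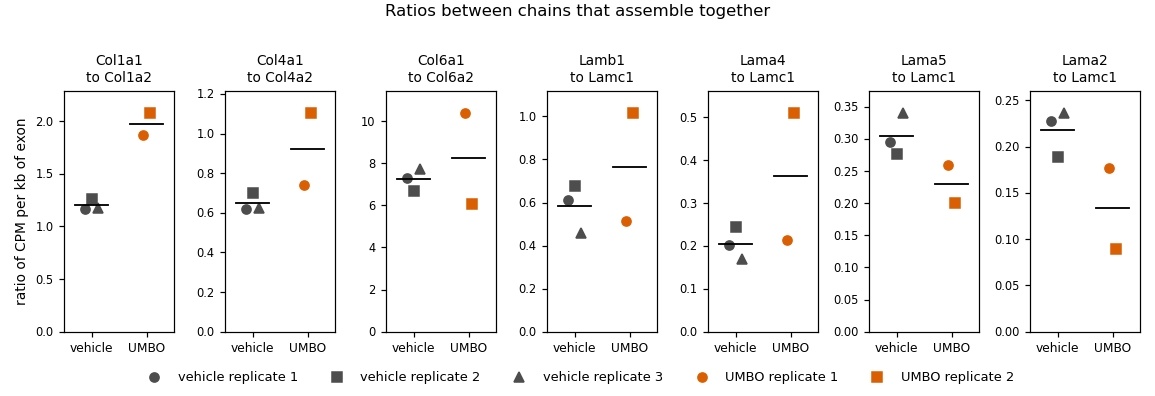
Ratio of CPM per kb of exon between chains that assemble together, for 7 pairs, with 1 point per library (vehicle grey, UMBO orange), the group mean as a bar and every axis starting at 0. Col1a1 to Col1a2 separates the groups with little spread, while Lama4 to Lamc1 is high only in UMBO replicate 2.

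Fibrillar collagens were the class with the most genes higher with UMBO. Of the 11, 9 had a log2 fold change above 0, beside 50.9% of all genes tested. In 6, each UMBO library was higher than any vehicle library, beside 11.5% of all genes tested. The class median was 0.71, or 0.56 without UMBO replicate 2. Col1a1 (chromosome 11 of GRCm38, 94936224 to 94953042), the alpha 1 chain of type I collagen, was at 16.1, 23.3 and 23.4 CPM with vehicle and at 46.4 and 47.3 with UMBO. The UMBO libraries lay close together, at 46.8 ± 0.66 CPM (SD, n = 2), and well above the vehicle mean of 21.0 ± 4.18 (SD, n = 3), a 2.23-fold difference. Its log2 fold change was 1.16 (standard error 0.21), the smallest p of the 55 genes in edgeR's quasi-likelihood test (unadjusted p = 0.00164, adjusted p = 0.497). The DESeq2 Wald test gave Col1a1 an adjusted p of 0.0513. Leaving out any 1 library kept its log2 fold change between 1.00 and 1.27.

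Type I collagen is a trimer with 2 alpha 1 chains and 1 alpha 2 chain, and the gene for the latter differed less. Col1a2 (chromosome 6, 4504814 to 4541544) was at 26.2, 35.0 and 37.6 CPM with vehicle and at 47.0 and 43.1 with UMBO, with no overlap and a log2 fold change of 0.45 (standard error 0.20). Per kb of exon, Col1a1 to Col1a2 was 1.17, 1.26 and 1.18 with vehicle and 1.87 and 2.08 with UMBO. The log2 difference of 0.71 compares with SDs of 0.061 and 0.11 within the groups (2-sided exact permutation test, p = 0.1, adjusted 0.175).

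Col3a1 (chromosome 1, 45311538 to 45349706), the type III chain of stretchable fibers in vessel walls, was at 14.1, 30.9 and 12.9 CPM with vehicle and at 37.9 and 83.0 with UMBO. The highest vehicle library, replicate 2, came near UMBO replicate 1. The log2 fold change of Col3a1 was 1.65 (standard error 0.50) and fell to 0.97 without UMBO replicate 2. Col5a3 (chromosome 9, 20770050 to 20815067, reverse strand), a minor chain of type V collagen, was at 7.22, 9.88 and 8.87 CPM with vehicle and at 16.7 and 21.7 with UMBO. The groups were clearly apart, with a log2 fold change of 1.15 (standard error 0.23), or 0.95 without UMBO replicate 2. Of the other type V genes, Col5a1 lay at a log2 fold change of -0.41 ± 0.38 (standard error) and Col5a2 at 0.43 ± 0.34. Each had overlapping libraries. Without UMBO replicate 2, Col5a1 was at -0.03 and Col5a2 at 0.77.

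Of the cartilage-type fibrillar collagens, Col11a2 and Col27a1 were higher in each UMBO library than in any vehicle library, with log2 fold changes of 0.71 ± 0.20 and 0.79 ± 0.25 (standard errors). Col2a1 and Col11a1 overlapped, at 1.07 and 0.26, or 0.41 and -0.04 without UMBO replicate 2. Col24a1 went the other way. This gene (chromosome 3, 145292472 to 145552011), for a fibrillar collagen known from developing bone and eye, was at 10.8, 6.74 and 10.9 CPM with vehicle and at 3.66 and 2.15 with UMBO. Even the lowest vehicle library exceeded both UMBO libraries, and the means of 9.49 ± 2.38 (SD, n = 3) and 2.91 ± 1.07 CPM (SD, n = 2) were 3.26-fold apart. The log2 fold change of Col24a1 was -1.70 (standard error 0.38), and -1.37 without UMBO replicate 2. It was the 1 gene of the 55 that the DESeq2 Wald test called (adjusted p 0.0244), whereas edgeR gave an adjusted p of 0.497.

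Collagen VI, which forms beaded filaments around vessels and cells, did not separate the groups in any of its 6 genes. Col6a1, the gene with the highest level per kb of exon of the 55 in vehicle libraries (20.7 CPM per kb), was at 106, 83.4 and 83.0 CPM with vehicle and at 140 and 74.3 with UMBO. Col6a2 was at 27.4, 23.7 and 20.4 CPM with vehicle and at 25.5 and 23.2 with UMBO. Col6a3 was at 7.60, 7.34 and 9.74 CPM with vehicle and at 8.85 and 4.86 with UMBO. For Col6a1 the UMBO libraries were the highest and the lowest of the 5. Log2 fold changes were 0.24 (standard error 0.30) for Col6a1, 0.03 (standard error 0.19) for Col6a2 and -0.26 (standard error 0.33) for Col6a3. Without UMBO replicate 2 they were 0.62, 0.10 and 0.11. For each of these genes the sign changed when 1 library was left out. The ratio of Col6a1 to Col6a2 overlapped too (exact permutation p = 0.8, log2 difference 0.14, and -0.25 without UMBO replicate 1). Col6a4, Col6a5 and Col6a6 had log2 fold changes from -0.49 to 0.23, or from -0.04 to 0.75 without UMBO replicate 2.

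Fibril-associated collagens moved in both directions. Col20a1 (chromosome 2, 180986535 to 181018363) was at 5.64, 7.77 and 6.06 CPM with vehicle and at 11.1 and 15.1 with UMBO. Its libraries did not overlap, and its log2 fold change was 1.01 (standard error 0.26), or 0.78 without UMBO replicate 2. Col14a1 (chromosome 15, 55307750 to 55520803), which regulates fibril diameter, was at 2.55, 2.43 and 2.88 CPM with vehicle and at 1.58 and 1.16 with UMBO. Both UMBO libraries lay below the 3 vehicle libraries, with a log2 fold change of -0.94 (standard error 0.31), or -0.73 without UMBO replicate 2. Col19a1, a gene that some brain neurons transcribe, was at 15.8, 8.26 and 14.3 CPM with vehicle and at 8.59 and 4.08 with UMBO. Vehicle replicate 2 lay between the UMBO libraries, so the groups overlapped despite a log2 fold change of -1.01 (standard error 0.44), or -0.57 without UMBO replicate 2.

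Col9a1, Col9a3 and Col22a1 also had the UMBO libraries on top without overlap, with log2 fold changes of 1.44, 0.26 and 0.07, and Col12a1 had both below, at -0.22. Col9a1 was at 0.79 without UMBO replicate 2. Col16a1 and Col9a2 overlapped, at 0.77 and 1.68, or 0.18 and 0.24 without that library. For Col22a1 the distance was tiny, with 3.28 CPM in the highest vehicle library and 3.33 in the lower UMBO library. Non-overlap with 5 libraries can therefore go with almost no difference in level.

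Among the remaining collagens, Col26a1 (chromosome 5, 136741759 to 136883209, reverse strand) was at 11.1, 9.30 and 10.3 CPM with vehicle and at 7.65 and 5.86 with UMBO. Each UMBO library was lower than any vehicle library, with a log2 fold change of -0.60 (standard error 0.24), or -0.42 without UMBO replicate 2. Col8a1, a short-chain collagen of vessel walls, was at 9.20, 7.36 and 11.8 CPM with vehicle and at 7.99 and 5.54 with UMBO, which overlapped, with a log2 fold change of -0.48 (standard error 0.31), or -0.24 without UMBO replicate 2. The anchoring fibril gene Col7a1 and the short-chain gene Col10a1 were above in both UMBO libraries (log2 fold changes 0.53 and 0.41), as was the transmembrane collagen gene Col13a1 (0.27), while the transmembrane collagen gene Col17a1 was below (-0.57). Without UMBO replicate 2, Col7a1 was at 0.28 and Col17a1 at -0.32. Col10a1 was the lowest of the 55 per kb of exon, and its values of 0.294 to 0.538 CPM rest on few reads. Col8a2, Col23a1, Col25a1 and Col28a1 overlapped, at -0.50, -0.08, -0.60 and -0.45, or -0.19, 0.37, 0.00 and -0.02 without UMBO replicate 2.

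**Figure D3:**
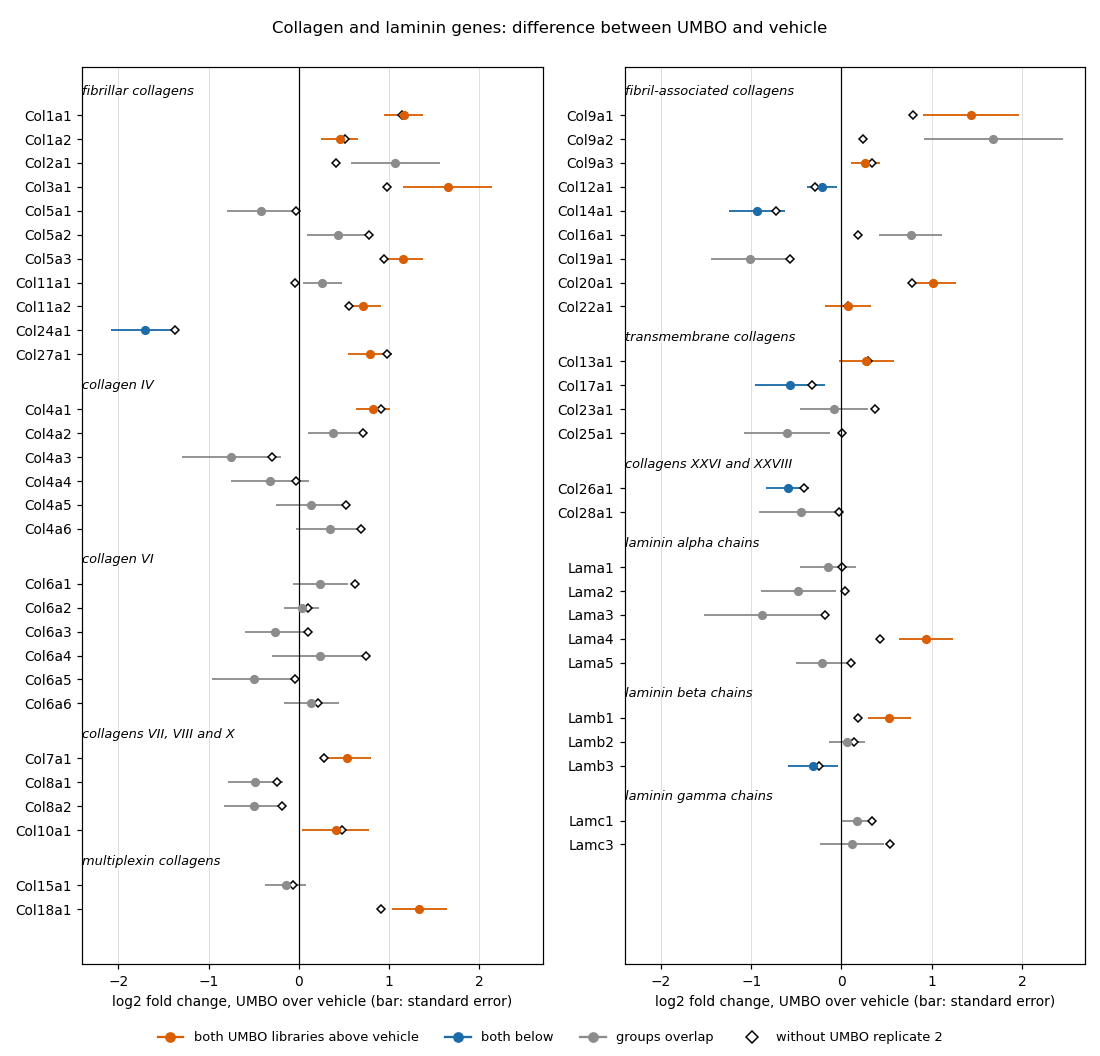
Log2 fold change of UMBO over vehicle for 54 collagen and laminin genes, with the standard error as a bar, colored by whether the libraries of the 2 groups overlap. Open diamonds give the value without UMBO replicate 2. Of the 11 fibrillar collagen genes, 9 lie right of 0, whereas the 10 laminin genes plotted scatter around it.

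The enzymes and chaperones that process collagen were described from a list of 31 genes. Of these, 23 had a log2 fold change above 0 and 8 below. At an unadjusted p under 0.05, 5 were higher and 0 lower, beside 5.3% and 2.06% of all genes tested. The adjusted edgeR threshold was passed by 0 of the 31. Their median was 0.52, and 0.16 without UMBO replicate 2. Serpinh1, the collagen-specific chaperone of the endoplasmic reticulum, was at 18.6, 38.8 and 27.9 CPM with vehicle and at 40.8 and 122 with UMBO, a log2 fold change of 1.52, or 0.52 without UMBO replicate 2. Loxl3, a lysyl oxidase that crosslinks collagen, was at 5.47, 7.74 and 6.84 CPM with vehicle and at 9.41 and 13.6 with UMBO, a log2 fold change of 0.78, or 0.49 without that library. For Serpinh1, UMBO replicate 1 was only slightly above the highest vehicle library, replicate 2, and for Loxl3 the gap was wider (9.41 against 7.74 CPM).

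Proteins that bind collagen IV and laminin in the basement membrane showed no common direction, with 7 of 14 genes higher and 7 lower. Their median of -0.07 turned with the library left out, to 0.19 without UMBO replicate 2 and 0.06 without vehicle replicate 3, and it was -0.36 without UMBO replicate 1. At an unadjusted p under 0.05, beside 5.3% of all genes tested higher and 2.06% lower, 0 of the 14 were lower and 2 higher. These were Vwa1, for a perlecan-binding matrix protein, at 19.8, 30.01 and 27.3 CPM with vehicle and 41.2 and 47.1 with UMBO, and Hspg2, for perlecan, at 18.8, 26.2 and 23.1 CPM with vehicle and 26.4 and 58.9 with UMBO. Vwa1 had a clear gap between the groups, whereas Hspg2 in UMBO replicate 1 was level with vehicle replicate 2. Without UMBO replicate 2 the log2 fold change fell from 0.78 to 0.68 for Vwa1 and from 0.91 to 0.22 for Hspg2.

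In the interstitial matrix list, 13 of 16 genes were higher and 3 lower. At an unadjusted p under 0.05, 5 were higher and 0 lower, beside 5.3% and 2.06% of all genes tested. The median was 0.65, and 0.27 without UMBO replicate 2. Dcn, for decorin, a small proteoglycan that coats type I collagen fibrils, was at 13.9, 20.6 and 23.3 CPM with vehicle and at 53.8 and 47.3 with UMBO. As for Col1a1, the UMBO libraries of Dcn lay near each other and far above the vehicle libraries, with a log2 fold change of 1.39. The DESeq2 Wald test gave Dcn an adjusted p of 0.0255, whereas edgeR gave 0.497, and 0 of the 16 genes passed the adjusted edgeR threshold. Tnc, for tenascin-C, was at 9.28, 12.98 and 10.6 CPM with vehicle and at 15.5 and 28.6 with UMBO, a log2 fold change of 1.01, or 0.51 without UMBO replicate 2.

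Of 16 genes for collagen and laminin receptors, 12 were higher and 4 lower, with a median of 0.25. At an unadjusted p under 0.05, 3 were higher and 0 lower, beside 5.3% and 2.06% of all genes tested. Itgb1, the beta chain shared by the collagen- and laminin-binding integrins, was at 78.4, 110 and 90.9 CPM with vehicle and at 122 and 196 with UMBO. Lair1, an inhibitory collagen receptor of leukocytes, was at 13.03, 24.0 and 16.7 CPM with vehicle and at 24.9 and 43.6 with UMBO. Vehicle replicate 2 was the highest vehicle library in each and came within reach of UMBO replicate 1. Their log2 fold changes were 0.77 and 0.94, or 0.39 and 0.48 without UMBO replicate 2.

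Markers of the cells that make these proteins were read in the same libraries, as the median log2 CPM of a list relative to each gene's vehicle mean. The 10 endothelial genes were at -0.30, 0.11 and 0.20 in the vehicle libraries and at 0.56 and 0.56 in the UMBO libraries. Of the 10, 9 were higher, and 6 had both UMBO libraries above, beside 11.5% of all genes tested. The summed CPM of these 10 genes was 185 to 259 against 322 and 356. Their median log2 fold change was 0.57, beside 0.82 for Col4a1, 0.38 for Col4a2, 1.33 for Col18a1, 0.94 for Lama4 and -0.21 for Lama5. Col4a1, Col18a1 and Lama4 were among the 17 of the 55 genes (30.9%) with both UMBO libraries on top, beside 11.5% of all genes tested. Col4a2 and Lama5 were not. Pericyte and smooth muscle genes (11) were at -0.25 to 0.16 with vehicle and at 0.13 and -0.14 with UMBO, with summed CPM of 225 to 297 against 322 and 256. Fibroblast and meningeal genes (10) were at -0.30 to 0.28 with vehicle and at 0.10 and 0.33 with UMBO. Their summed CPM was 37.0 to 57.1 against 48.7 and 65.3. In that list 1 gene had both UMBO libraries above and 2 had both below, beside 11.5% and 11.4% of all genes tested. Col1a1 and Dcn, which are not in that list, did not overlap between the groups, and the cell source of their RNA was not tested.

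UMBO replicate 2 departed from the other libraries in several marker lists. The 8 monocyte and macrophage genes were at -0.92 to 0.86 with vehicle and at 0.49 and 2.74 with UMBO, and the 10 proliferation genes at -0.63 to 0.93 with vehicle and at 1.04 and 2.97 with UMBO. Astrocyte genes (6) were at 0.25 and -0.55 in the UMBO libraries and choroid plexus genes (8) at -0.10 and -1.02. Of 6 neuronal genes, 4 had both UMBO libraries below every vehicle library, beside 11.4% of all genes tested. The neuronal list was at 0.35, -0.17 and -0.23 with vehicle and at -0.26 and -0.95 with UMBO. UMBO replicate 1 thus lay close to vehicle replicates 2 and 3. The oligodendrocyte genes (6) were at 0.05 and -0.11 in the UMBO libraries. No list had a gene at 0 in any library. Genes with their highest value in UMBO replicate 2, such as Col3a1, Col18a1, Lama4 and Serpinh1, and those with their lowest there, such as Lama2, Lama5 and Col24a1, had these values in the library whose markers stood apart. The part of cell composition, tumor cells and RNA per cell in any of these differences was not tested.

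**Figure D4:**
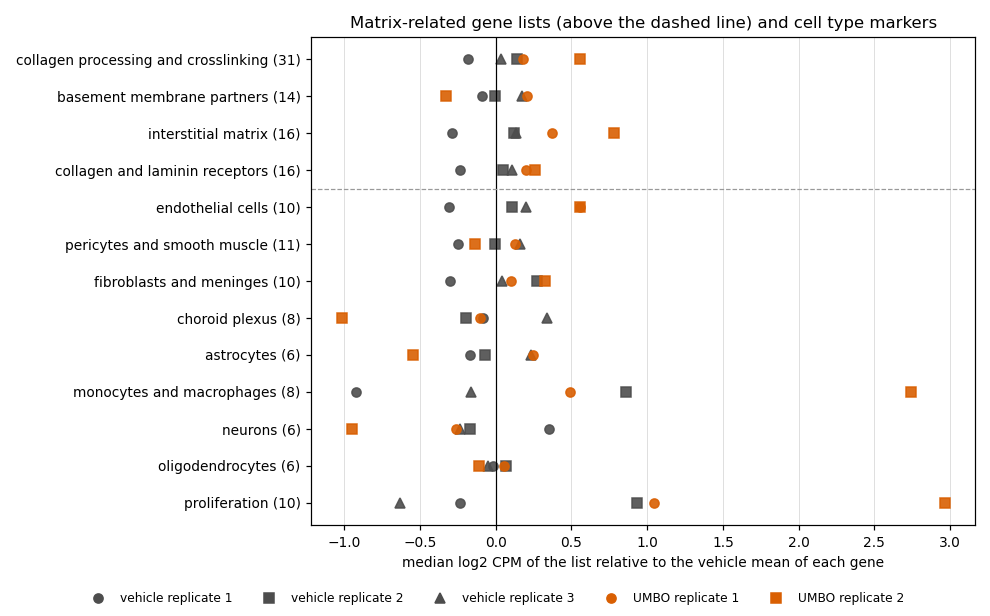
Median log2 CPM of each gene list in each library, relative to the vehicle mean of every gene (0), with the number of genes in brackets, vehicle in grey and UMBO in orange. The endothelial list has both UMBO libraries at 0.56, above all vehicle libraries, and the monocyte and proliferation lists have UMBO replicate 2 at 2.74 and 2.97.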

How the data were processed

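Per the labels and methods, STAR 2.7.2a aligned the reads to GRCm38, and the authors deposited unnormalized read counts for each gene, in a separate table per library. The counting program, its strand setting and the annotation release are not given in the sources used here. Symbols and positions came from GENCODE M21, which matched 55480 of 55573 genes. At most 0.0017% of a library's counts had no symbol. Exons of 13 collagen or laminin genes overlap a gene on the opposite strand, among them Col4a1, Col4a2, Col9a3, Lama2 and Lama3, so a few of their reads are uncertain. Col3a1, Col7a1 and Col20a1 overlap another gene on the same strand.

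The counts were analysed in edgeR 4.0.16 under R 4.3.3. After TMM normalization, filterByExpr kept 23592 genes for quasi-likelihood tests, whose p-values were adjusted by Benjamini-Hochberg at a threshold of 0.05. The common dispersion was 0.1181. CPM were scaled by the TMM factors. List medians per library used log2(CPM + 0.1). Levels were compared between genes only per kb of merged exons. Ratios were tested by 2-sided exact permutation over the 10 groupings of the libraries. On data simulated with these libraries' dispersions, 134 of 200 genes set 4-fold apart were called, with 12 others (22959 genes tested). Genes were drawn independently and no simulated library stood apart as UMBO replicate 2 did, so this share does not give the power in the real data. No 2 libraries of a group were alike within sampling noise (chi-square per gene 65.6 to 412.6, where about 1 is sampling noise). The depth leaves little counting error for most genes, so the spread between mice sets the precision. The paper describes 3 mice per group, and 5 libraries were analysed here.

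Values of 1 of the 55 genes are not reported here, though it is in the counts, sums and medians. The genes and lists were chosen with earlier results of these data known. Described in full were 14 chains of vascular basement membrane and interstitial matrix and, in either direction, the 5 genes lowest in p. Other genes were named where the groups did not overlap, and so were the 2 genes lowest in p from each list of matrix-related genes. Alternatives were DESeq2's size factors, library size only, no filter, the DESeq2 1.42.0 Wald test, the replicate number as a block and each library left out.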

Additional observations from a re-analysis of the deposited data

How the results depend on the processing

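Of the 22 genes described in full, 14 kept 1 direction under the 10 alternatives run on genes, among them Col1a1, Col4a1, Col5a3, Col18a1 and Col24a1. So did 5 of the 7 chain ratios under the 6 run on ratios. Library-size scaling alone moved the median of all genes from 0.01 to 0.13 and that of the 55 genes to 0.22. The adjusted threshold of 0.05 was passed by 1 of the 55 genes in the DESeq2 Wald test. With 1 library left out in edgeR, this number ranged from 0 to 16. The 16 arose without UMBO replicate 1, where 18.3% of all genes were called and the lone UMBO library is assumed to vary like the others. With 1 vehicle library left out, 6 to 12 genes were higher at an unadjusted p under 0.05, beside 0.838% to 9.36% of all genes. The lower ones numbered 1 to 2, beside 0.441% to 2.21% of all genes. With any 1 library left out, genes above every vehicle library ranged from 17 to 27 (the 27 without UMBO replicate 2, beside 18.5% of all genes). Those below ranged from 6 to 26 (the 26 without UMBO replicate 1, beside 41.3%), and the median from -0.141 to 0.182.

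With the replicate number as a block, edgeR called 15 of the 55 genes at an adjusted p under 0.05 (13 higher, 2 lower), beside 9.91% of all genes, and 17 were higher and 7 lower at an unadjusted p under 0.05, beside 14.4% and 11.6% of all genes. Col6a2 was then at -0.069. Nothing in the labels says that a number pairs mice: correlations of 0.453 and 0.76 between same-numbered libraries come from 2 pairs, and 2 UMBO libraries mirror each other by construction.

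With 1 library left out, log2 fold changes spanned -0.072 to 0.707 for Col4a2, -0.316 to 0.625 for Col6a1, -0.072 to 0.142 for Col6a2, -0.79 to 0.105 for Col6a3, -1.324 to 0.04 for Lama2, -0.648 to 0.106 for Lama5, -0.069 to 0.165 for Lamb2 and -0.042 to 0.342 for Lamc1. The log2 ratio difference ranged from -0.248 to 0.525 for Col6a1 to Col6a2 and from -0.157 to 0.824 for Lamb1 to Lamc1. The cause was not tested for any of these.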

Other observations

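Col9a2, for a chain of type IX collagen, fell outside the rule for genes described in full and was chosen after its values were seen. It had the largest log2 fold change of the 55 genes, 1.68 (standard error 0.77), and was at 34.9, 83.7 and 21.5 CPM with vehicle and at 55.1 and 245 with UMBO. UMBO replicate 1 lay inside the vehicle range, and without UMBO replicate 2 the log2 fold change was 0.24. Of its trimer partners, Col9a1 was at 7.39, 7.76 and 2.74 CPM with vehicle and at 10.3 and 22.0 with UMBO, and Col9a3 was at 27.2, 29.1 and 31.2 CPM with vehicle and at 37.0 and 33.1 with UMBO. Col9a1 thus shared the high value in UMBO replicate 2, and Col9a3 did not. Per kb of exon, Col9a2 was at 15.1 ± 10.6 CPM in the vehicle libraries (SD, n = 3), second to Col6a1, and Col9a3 at 7.58 ± 0.52 (SD, n = 3). In vehicle replicate 3, Col9a3 was the higher of the 2 per kb, at 8.11 against 6.95 CPM.

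Col25a1, for a transmembrane collagen of neurons that binds amyloid fibrils, was also chosen after its values were seen. It was at 66.5, 57.2 and 78.3 CPM with vehicle and at 67.3 and 21.3 CPM with UMBO. Its log2 fold change was -0.60 with both UMBO libraries and 0.00 without UMBO replicate 2, the library in which the neuronal marker list was at -0.95.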
